A study of Mus musculus with 22 samples.

Results

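The erythroid programme was examined in haematopoietic stem cells (HSCs), the bone marrow cells that give rise to every blood lineage, through 9 genes. The members were taken by name from the 55416 gene identifiers of the count files. They are the adult globin genes Hba-a1, Hba-a2, Hbb-bs and Hbb-bt, the carbonic anhydrase genes Car1 and Car2, and the transcription factor genes Gata1, Klf1 and Gfi1b. The names were chosen for their roles and not by a measured value, but with earlier results of these data known. All 9 passed the filter on low counts, which kept 17366 genes.

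Red cells form when HSCs pass through progenitors with joint megakaryocyte and erythroid potential and then through erythroblasts, which fill with haemoglobin. GATA1 is the master activator of this path, KLF1 switches on the adult beta-globin genes and much of the late red-cell programme, and GFI1B is a repressor needed in both erythroid and megakaryocyte development. Haemoglobin is built from alpha chains, encoded by Hba-a1 and Hba-a2, and beta chains, encoded by Hbb-bs and Hbb-bt. Carbonic anhydrases interconvert carbon dioxide and bicarbonate. Car1 is a marker of committed erythroid progenitors, whereas Car2 is found in erythroid cells and in several other cell types. Low transcript levels of lineage genes in stem cells are commonly called lineage priming, and RNA of red cells, which are abundant in marrow, can also enter a sorted sample.

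The 22 libraries came from 11 mice, each of which gave a LEPR+ and a LEPR- library, where LEPR is the leptin receptor detected on the cell surface. In 4 young mice, aged 2 to 3 months, and 7 middle-aged mice, aged 12 to 15 months, stem cells were defined by surface staining (no lineage markers, Sca1+, Kit+, CD150+, CD48-) and sorted from the marrow of the hind-limb long bones, after magnetic removal of lineage-positive cells. Mice 1 and 2 were young males, mice 3 and 4 young females, mice 8 and 9 middle-aged males, and mice 5, 6, 7, 10 and 11 middle-aged females. The labels give neither the strain nor the number of cells per library, and the groups are defined by age and LEPR status. Males were 2 of the 4 young and 2 of the 7 middle-aged mice. The comparisons ask whether these genes differ with surface LEPR at each age, with age in each fraction, and whether the LEPR difference itself differs between ages.

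The globin genes share sequence, which bears on how their values can be read. The alpha-globin genes are near-copies: the 250 bases before the start sites of Hba-a1 and Hba-a2 were 97.6% identical in RefSeq (GRCm38.p6), against 69.3% for Hbb-bs and Hbb-bt. Of the 75-base windows in the principal transcript, 78.3% for Hba-a1 and 86.9% for Hba-a2 also occurred in the other alpha gene. The corresponding shares were 60.7% for Hbb-bs and 56.5% for Hbb-bt, 7.54% for Car1 (shared with the predicted genes Gm5843 and Gm66715), and 0 for Car2, Gata1, Klf1 and Gfi1b. Reads from shared stretches do not enter a count of uniquely placed reads, so the level of each globin gene and the split between the copies are uncertain. The read length is not given in the sources used here, and 75 bases were taken as an example.

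The upstream 250 bases of 1 alpha and both beta genes are shown because the alpha and beta genes moved together across mice while the beta genes changed in their ratio. Capitals mark matches to a GATA motif (GATA with A or T before it and A or G after it) or to a KLF motif (CCACACCC, CCACGCCC, CCCCACCC or CCCCGCCC), searched on both strands. Each is written 5' to 3' on the gene's strand, on GRCm38.p6: Hba-a1 at chr11:32283422-32283671 on the plus strand, Hbb-bs at chr7:103827929-103828178 and Hbb-bt at chr7:103813924-103814173, both on the minus strand.
Hba-a1: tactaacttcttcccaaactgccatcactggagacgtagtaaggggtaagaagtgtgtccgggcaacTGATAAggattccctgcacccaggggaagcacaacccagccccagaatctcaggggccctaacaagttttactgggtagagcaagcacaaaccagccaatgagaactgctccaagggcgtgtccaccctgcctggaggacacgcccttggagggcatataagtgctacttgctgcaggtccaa
Hbb-bs: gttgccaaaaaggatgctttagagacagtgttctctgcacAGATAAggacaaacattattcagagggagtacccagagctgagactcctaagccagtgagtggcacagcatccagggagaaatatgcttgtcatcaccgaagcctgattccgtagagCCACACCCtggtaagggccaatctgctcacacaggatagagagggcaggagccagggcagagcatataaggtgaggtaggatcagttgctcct
Hbb-bt: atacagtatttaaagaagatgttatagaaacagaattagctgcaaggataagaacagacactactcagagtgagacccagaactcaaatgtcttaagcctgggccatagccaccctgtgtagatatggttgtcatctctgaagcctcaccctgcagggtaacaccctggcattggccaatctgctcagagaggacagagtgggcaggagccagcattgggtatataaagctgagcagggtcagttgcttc
Hba-a1 held 1 GATA match, 183 bases before the start site, and Hba-a2 the same letters at 186 bases. Hbb-bs held a GATA match at 210 bases and the KLF match CCACACCC at 93 bases before its start site. In Hbb-bt neither set of letters occurred in this window. Among the 3 regulators, Klf1 and Gfi1b each held 1 GATA match (80 and 120 bases before the start site) and Gata1 held 1 KLF match at 55 bases. No GATA match overlapped a KLF match. Of 32851 RefSeq promoter windows of the same length, 26.5% held a GATA match and 27.4% a KLF match, so that a match by itself is common. RefSeq windows were matched for 7 of the 9 members, all but Car1 and Car2.

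The libraries held between 10.3 M and 61.7 M counts in genes (M, mega), with a median of 33.0 M. Values below are CPM, counts scaled to a common library size, after TMM scaling, which adjusts that size for composition. Genes of the HSC list were present: 9 or 10 of its 10 genes had more than 3 counts in every library. Lepr itself had 3 counts or fewer in 17 of 22 libraries, so its transcript does not check the sort. The share of genes with few counts differed between libraries. Lost transcripts and genes truly low in a group cannot be told apart by it. Among 6763 genes with a mean of 10 to 100 CPM, a median of 11.3% had 3 counts or fewer in young LEPR+ libraries and 20.2% in young LEPR- libraries, against 0.710% in each middle-aged group. Mouse 6 was highest among middle-aged mice, with 19.3% in its LEPR+ and 9.02% in its LEPR- library. Mouse 5 followed, with 5.19% in its LEPR+ and 2.59% in its LEPR- library, and the LEPR+ library of mouse 7 had 2.60%. The other middle-aged libraries had 0.0592% to 1.75%. The share thus differed along the age contrast and, in young mice, also along the LEPR contrast. The share was higher in LEPR- than in LEPR+ cells in mice 1, 2 and 3 (18.8%, 27.6% and 21.7% against 8.59%, 11.05% and 11.6%). In mouse 4 it was lower, at 14.7% in LEPR- and 15.4% in LEPR+ cells. The part of this difference in the values of the members was not tested.

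Hbb-bs, an adult beta-globin gene on chromosome 7 (103475730 to 103482989, minus strand; these and later gene coordinates are on GRCm39), was detected in every library at levels that ranged 439-fold. In young LEPR+ cells it stood at 90.8 CPM in mouse 1, 1005 CPM in mouse 2, 8.85 CPM in mouse 3 and 26.4 CPM in mouse 4. In young LEPR- cells the same mice had 90.8, 919, 3.24 and 255 CPM. Mouse 2 was thus highest in both fractions and mouse 3 lowest in both. In middle-aged cells, the lowest, median and highest values were 2.29, 45.2 and 692 CPM in the LEPR+ fraction and 18.5, 50.2 and 371 CPM in the LEPR- fraction. Mouse 6 gave the highest value of both fractions. All groups overlapped.

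Hba-a1, an alpha-globin gene on chromosome 11 (32233186 to 32234504, plus strand), followed the same mice. In mice 1 to 4, LEPR+ cells had 48.5, 444, 5.40 and 8.12 CPM, and LEPR- cells 58.1, 364, 10.1 and 199 CPM. The middle-aged values ran from 1.13 through a median of 38.7 to 367 CPM in LEPR+ libraries and from 10.3 through 29.8 to 250 CPM in LEPR- libraries. Mice 2 and 6 were again the highest of their age in both fractions, and the lowest library of all was the LEPR+ library of mouse 11.

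Hba-a2, the other alpha-globin gene (32246168 to 32247320), had the lower count of the alpha pair in every library, with Hba-a1 to Hba-a2 count ratios between 1.53 and 6.51. It ranged from 0.176 CPM in the LEPR+ library of mouse 11 to 262 CPM in that of mouse 2. Hbb-bt, the second beta-globin gene (chromosome 7, 103461727 to 103465047, minus strand), varied least among the globins, from 6.45 to 249 CPM, a 38.5-fold range. Its young LEPR+ values were 42.0, 154, 22.6 and 30.5 CPM and its young LEPR- values 45.0, 249, 6.45 and 76.8 CPM. In middle-aged mice it ran from 7.32 through 18.99 to 138 CPM in LEPR+ libraries and from 9.42 through 17.6 to 87.9 CPM in LEPR- libraries.

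The sum of the 4 globin genes set the mice apart. It was 1865 CPM in the LEPR+ and 1768 CPM in the LEPR- library of mouse 2, and 1383 and 835 CPM in those of mouse 6. In mouse 3 the sums were 38.7 and 21.3 CPM, and in mouse 11 10.9 and 42.8 CPM. The 2 fractions of a mouse usually lay close: the larger sum was less than 2 times the smaller in 7 of 11 mice, with a median ratio of 1.71. From the lowest to the highest mouse, LEPR+ libraries spanned 171-fold and LEPR- libraries 82.9-fold. Such a span over 11 mice is not a like measure to a median ratio of 2 libraries. The widest gaps within a mouse were in mouse 4 (68.6 CPM in LEPR+ and 631 CPM in LEPR- cells, 9.19-fold) and mouse 10 (12.2 and 99.1 CPM, 8.12-fold). Where the ratio exceeded 2, in mice 4, 8, 10 and 11, the LEPR- library had the larger sum. Where it was under 2, LEPR+ had the larger sum in mice 2, 3, 5, 6 and 7 and LEPR- in mice 1 and 9. In bulk libraries, more cells with globin RNA and more globin RNA per cell cannot be told apart. Globin reads made up between 0.00119% and 0.182% of a library's gene counts.

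**Figure D1:**
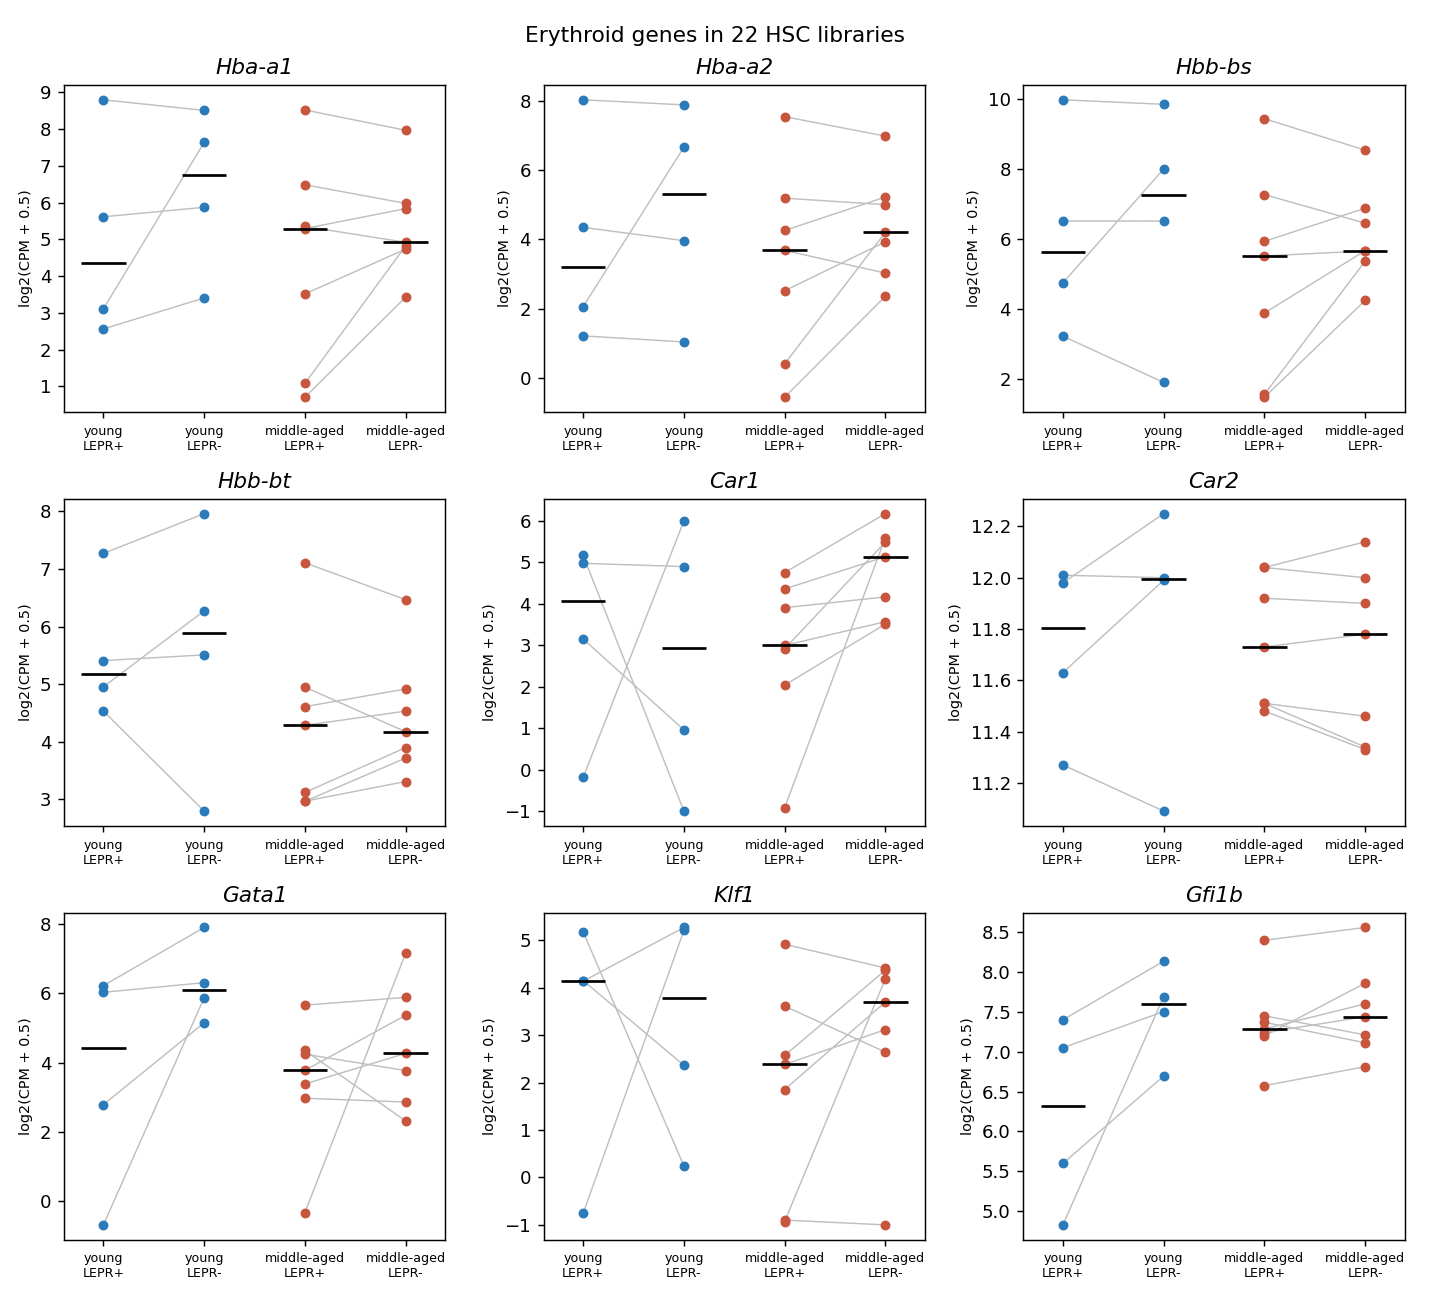
Level of each of the 9 genes in the 22 libraries. Each point is 1 library (blue young, red middle-aged), the vertical axis is log2(CPM + 0.5), black bars are group medians and grey lines join both fractions of a mouse; vertical scales differ between panels. The globin genes spread over many log2 units within each group, while Car2 stays between 2185 and 4884 CPM.

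The balance between the beta-globin genes differed between libraries with high and low Hbb-bs, which is itself 1 side of that ratio. Where Hbb-bs reached 200 CPM or more, in 5 libraries, its counts were 3.32 to 6.54 times those of Hbb-bt. Where Hbb-bs was under 10 CPM, in 4 libraries of mice 3, 10 and 11, Hbb-bt had the higher count and the ratio was 0.313 to 0.503. The libraries at the extremes came from both ages. Libraries with nearly equal globin sums could differ in this ratio. It was 0.391 in the LEPR+ library of mouse 3 (sum 38.7 CPM) and 1.74 in that of mouse 8 (sum 38.6 CPM). The alpha to beta balance also varied. Hba-a1 to Hbb-bs count ratios had a median of 0.602 and a lowest value of 0.308. Their highest value, 3.11, was in the young LEPR- library of mouse 3. Counts of both beta genes over both alpha genes had a median ratio of 1.54. This ratio ran from 0.833 in the same library of mouse 3 to 7.38 in the LEPR+ library of mouse 11. These ratios share Hbb-bs with the axis they are set against, and no test was made of them.

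**Figure D2:**
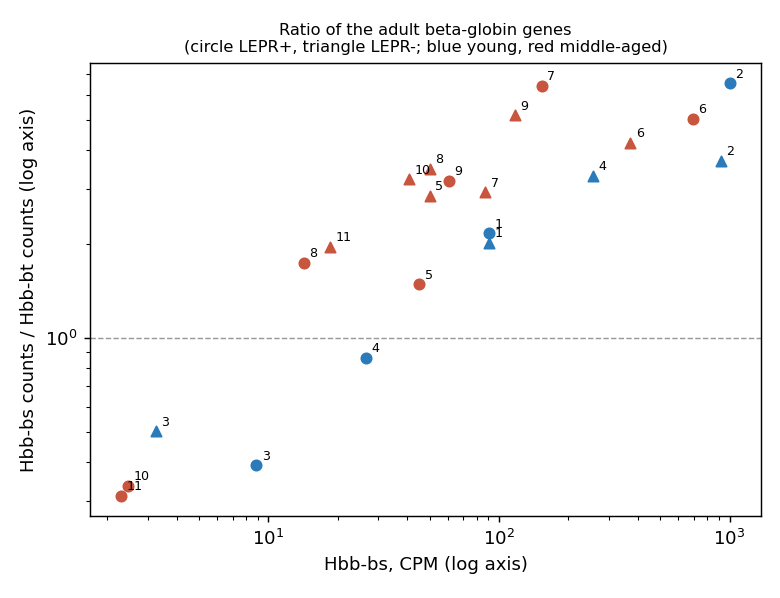
Ratio of Hbb-bs to Hbb-bt counts (vertical, log axis) against the Hbb-bs level in CPM (horizontal, log axis) in 22 libraries. Numbers are mice, circles LEPR+, triangles LEPR-, blue young, red middle-aged, and the dashed line marks equal counts. The ratio runs from 0.313 to 6.54 and the 4 libraries with Hbb-bs under 10 CPM lie below the line.

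The other globin genes were nearly absent. The 6 listed, which are the embryonic-type genes Hba-x, Hbb-y, Hbb-bh1 and Hbb-bh2 and the theta-globin genes Hbq1a and Hbq1b, summed to at most 1.55 CPM in any library, and none passed the filter on low counts. Only Hbb-y and Hbb-bh1 exceeded 3 counts, each in 1 library.

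Car2 (chromosome 3, 14951317 to 14967568, plus strand) behaved differently from every other member. Per kilobase of exon, its mean level of 798 CPM per kb ranked 33 among 34699 genes with counts. It was present at 2185 to 4884 CPM in all 22 libraries, a 2.24-fold range with a coefficient of variation (SD over mean) of 21.6%. Young LEPR+ levels were 2461, 3173, 4028 and 4117 CPM in mice 1 to 4, and its young LEPR- values 2185, 4076, 4884 and 4107 CPM. Middle-aged values were 2859, 3400 and 4215 CPM (lowest, median and highest) in LEPR+ cells and 2580, 3519 and 4525 CPM in LEPR- cells. Means were 3445 ± 782 CPM (SD, n = 4) and 3813 ± 1148 CPM (SD, n = 4) in young LEPR+ and LEPR- cells, and 3486 ± 613 CPM (SD, n = 7) and 3419 ± 777 CPM (SD, n = 7) in middle-aged ones. The groups overlapped, and mouse 1 was lowest among young mice in both fractions.

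Car1 lies in the same carbonic anhydrase cluster on chromosome 3 (14831269 to 14873459, minus strand), separated from Car2 by Car3, but had none of its steadiness. Its young LEPR+ values were 0.377, 35.2, 8.35 and 30.9 CPM in mice 1 to 4, and its young LEPR- values 62.9, 0, 1.44 and 29.2 CPM. A count of 0 in the LEPR- library of mouse 2 allows up to 3 counts. The middle-aged values were 0.0276, 7.45 and 26.4 CPM in LEPR+ cells (lowest, median and highest) and 10.9, 34.5 and 71.3 CPM in LEPR- cells. In 7 of 7 middle-aged mice and 1 of 4 young mice, Car1 was the lower in LEPR+ cells. Of all tested genes, 0.668% were lower in LEPR+ cells in every middle-aged mouse. The 2 groups still overlapped, and the fitted difference did not pass the test.

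Of the 13 other carbonic anhydrase genes listed, 8 were tested. Car9, at a mean of 19.8 CPM, was the 1 found above 3 counts in all 22 libraries, and edgeR called 0 of the 8 in any comparison, with 3, 0, 1, 3 and 2 at an unadjusted p under 0.05 for LEPR in young and middle-aged mice, age in LEPR+ and LEPR- cells, and the difference between ages. The shares of all tested genes at that level were 16.1%, 0.875%, 19.7%, 28.01% and 12.8% in the same order. Car4, Car6, Car10, Car14 and Car15 did not exceed 3 counts in any library.

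Gata1 (chromosome X, 7825499 to 7844310, minus strand) ranged 2086-fold. Young LEPR+ libraries held 6.38, 0.115, 74.4 and 65.0 CPM in mice 1 to 4, and young LEPR- libraries 35.01, 58.1, 240 and 78.9 CPM. It was lower in the LEPR+ library of each of the 4 young mice, as were 4.53% of all tested genes, and the groups overlapped. Middle-aged values were 0.284, 13.2 and 50.2 CPM in LEPR+ cells (lowest, median and highest) and 4.45, 18.7 and 143 CPM in LEPR- cells. The LEPR+ libraries of mice 2 and 6, which were the richest in globin for their ages, had only 4 Gata1 counts each, while the LEPR- libraries of the same mice had 1186 and 5404.

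Klf1 (chromosome 8, 85628557 to 85631934, plus strand) was the member closest to the detection limit. It had 3 counts or fewer in 4 libraries: the young LEPR+ library of mouse 4, both libraries of mouse 5 and the LEPR+ library of mouse 7. Its young LEPR+ values were 17.1, 17.3, 35.8 and 0.0913 CPM and its young LEPR- values 38.2, 4.66, 0.685 and 36.5 CPM in mice 1 to 4. Middle-aged values were 0.0246, 4.72 and 29.8 CPM in LEPR+ cells and 0, 12.5 and 20.9 CPM in LEPR- cells. No group stood apart. Klf1 shares exonic sequence with Gcdh on the other strand, and Gata1 with the antisense transcript Gm14820. The strand setting of the counting is not given in the sources used here, so reads over these overlaps cannot be assigned with certainty.

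Gfi1b (chromosome 2, 28499462 to 28511994, minus strand) was the steadiest of the regulators, present in every library at 27.9 to 377 CPM. Its young LEPR+ values were 47.9, 27.9, 169 and 132 CPM in mice 1 to 4, and its young LEPR- values 103, 206, 281 and 181 CPM. Each young mouse had the lower value in its LEPR+ library, from 1.37 to 7.40 times lower. The LEPR+ library was likewise lower in each young mouse for 4.53% of all tested genes. Middle-aged values were 94.8, 156 and 337 CPM in LEPR+ cells and 112, 173 and 377 CPM in LEPR- cells, with the LEPR+ library lower in 5 of 7 mice. Mouse 10 was highest in both middle-aged fractions. Means were 94.1 ± 67.1 CPM (SD, n = 4) in young LEPR+ cells, against 193 ± 73.3 (SD, n = 4), 175 ± 75.9 (SD, n = 7) and 196 ± 88.8 CPM (SD, n = 7) in young LEPR-, middle-aged LEPR+ and middle-aged LEPR- cells.

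Between LEPR+ and LEPR- cells of young mice, none of the 9 genes passed the test (edgeR's quasi-likelihood test, Benjamini-Hochberg adjusted p under 0.05 over all genes). Of all tested genes, 0.599% were called, and DESeq2 called 0 of the 9 in this and every other comparison. Gfi1b came nearest, with a log2 fold change of -1.04 (SE 0.49) and an adjusted p of 0.296. It was the 1 member with an unadjusted p under 0.05 (0.0466), as had 2792 of all genes (16.1%). With the mouse as a block, which compares both fractions within each animal, the Gfi1b difference was -1.26 (SE 0.34) with an edgeR adjusted p of 0.198. Gata1 followed at -1.50 (SE 1.30, edgeR adjusted p 0.808), then Car2 at -0.15 (SE 0.23) and Hbb-bt at -0.60 (SE 1.02). Car1 stood at -0.32 (SE 1.47), Hba-a1 at -0.32 (SE 1.46), Hba-a2 at -0.30 (SE 1.62) and Klf1 at -0.19 (SE 1.67). For Hbb-bs the fitted value of -0.16 (SE 1.55) rested on mouse 2: it was -2.97 without that mouse's LEPR+ library and 1.32 without its LEPR- library, neither of which passed the test. The other 3 globins also changed sign between these fits.

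In middle-aged mice none of the 9 genes passed the same test, and 0 of all 17366 genes did. At an unadjusted p under 0.05 there were 152 genes (0.875%), none of them a member. That is below the share of 0.05 that evenly spread p-values would give. The main fit leaves out the pairing by mouse, and the part of this in the low share was not tested. DESeq2 called 4 genes, of which none was a member. Car1 had the largest fitted difference, a log2 fold change of -1.59 (SE 1.14, edgeR adjusted p 1), next to Gata1 at -1.26 (SE 0.98). Klf1 stood at -0.64 (SE 1.27), Gfi1b at -0.17 (SE 0.37) and Car2 at 0.03 (SE 0.17). The globins stood at 0.40 (SE 1.17) for Hbb-bs, 0.26 (SE 0.77) for Hbb-bt, 0.24 (SE 1.10) for Hba-a1 and 0.12 (SE 1.23) for Hba-a2, but these signs rested on mouse 6. Without its LEPR+ library the 4 values lay between -1.49 (Hba-a2) and -0.79 (Hbb-bt), and without its LEPR- library between 0.91 (Hbb-bt) and 1.19 (Hbb-bs). With the mouse as a block all 4 were below 0, from -1.24 (Hba-a2) to -0.16 (Hbb-bt). Counted by mouse, Hbb-bs and Hbb-bt were lower in LEPR+ cells in 5 of 7 mice each, and Hba-a1 and Hba-a2 in 4 of 7 each. None of these fits passed the test.

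For the change of the LEPR difference between ages, edgeR called none of the 9, where 0.236% of all genes were called, and none of the 9 had an unadjusted p under 0.05, against 12.8% of all genes. The Gfi1b estimate of that difference was 0.87 (SE 0.61, edgeR adjusted p 0.768). With the mouse as a block and with sex as a covariate, 1 member each had an unadjusted p under 0.05. The Gfi1b value was then 1.11 (SE 0.42, edgeR adjusted p 0.479) and 1.06 (SE 0.50, edgeR adjusted p 0.425). For the other members the difference was -1.27 (SE 1.85) for Car1, -0.45 (SE 2.10) for Klf1, 0.24 (SE 1.60) for Gata1 and 0.17 (SE 0.29) for Car2. For the globins it was 0.86 (SE 1.28) for Hbb-bt, 0.56 (SE 1.94) for Hbb-bs, 0.56 (SE 1.83) for Hba-a1 and 0.42 (SE 2.04) for Hba-a2, and each of these 4 changed sign when 1 library was left out.

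With age, none of the 9 passed edgeR's test in LEPR+ cells, where 0.173% of all genes were called, and none in LEPR- cells, where 3.84% were. None of the 9 had an unadjusted p under 0.05 either, against 3427 (19.7%) and 4865 (28.01%) of all genes. In LEPR+ cells the fitted values (middle-aged over young) were 0.89 (SE 0.44) for Gfi1b with an edgeR adjusted p of 0.271, -1.17 (SE 1.45) for Klf1, -1.10 (SE 1.11) for Gata1, -0.73 (SE 1.28) for Car1 and 0.02 (SE 0.20) for Car2. For the globins in LEPR+ cells the direction followed single libraries. Hba-a1 was at -0.69 (SE 1.27) with all libraries, at 1.93 (SE 1.48) without the LEPR+ library of mouse 2 and at -2.06 (SE 1.22) without that of mouse 6. Hbb-bs moved in the same way, from -1.03 (SE 1.34) to 1.73 and to -2.61. Hba-a2 stood at -0.95 (SE 1.41) and Hbb-bt at -0.90 (SE 0.89) with all libraries, and both also changed sign when 1 library was left out. None of these values passed the test.

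In LEPR- cells, all 4 globins had lower fitted levels in middle-aged mice: Hbb-bt by a log2 fold change of -1.76 (SE 0.88, edgeR adjusted p 0.195), Hbb-bs by -1.59 (SE 1.34), Hba-a2 by -1.37 (SE 1.40) and Hba-a1 by -1.25 (SE 1.26). None of them passed the test. Without the LEPR- library of mouse 2 they came to -0.63 for Hbb-bt, -0.16 for Hbb-bs, -0.22 for Hba-a2 and -0.44 for Hba-a1. The other members stood at -1.34 (SE 1.10) for Gata1, -0.71 (SE 1.46) for Klf1, 0.54 (SE 1.33) for Car1, -0.16 (SE 0.20) for Car2 and 0.03 (SE 0.43) for Gfi1b. Leaving out mouse 6, an alternative chosen after seeing the data, brought Hbb-bt to -2.41 (SE 0.74) with an edgeR adjusted p of 0.0404. Leaving out mouse 2 brought it to -0.63 (SE 0.91). The Hbb-bt call therefore depended on which of the 2 globin-rich mice was kept. Across all 4 comparisons of groups, the values of every member overlapped between the groups, where 2.06% of all genes did not overlap for LEPR in young mice, 0.00576% for LEPR in middle-aged mice, 3.04% for age in LEPR+ cells and 5.06% for age in LEPR- cells.

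**Figure D3:**
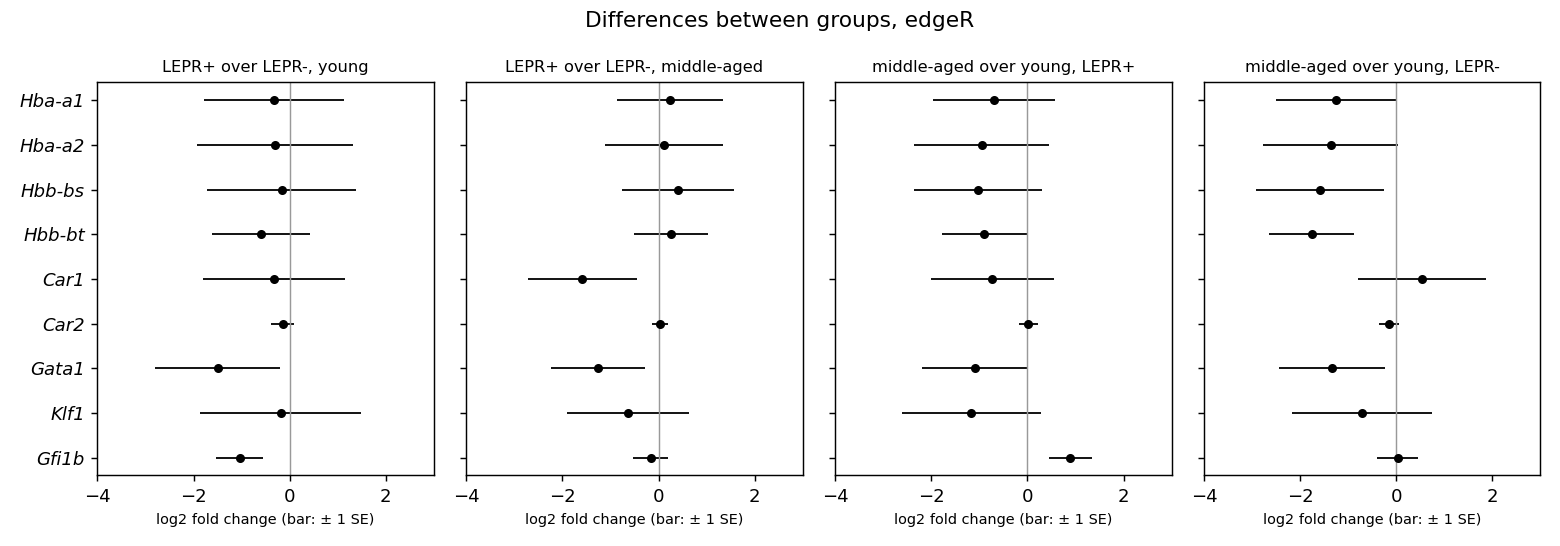
Fitted log2 fold changes of the 9 genes in the 4 comparisons of groups (edgeR, points) with 1 standard error (bars); the vertical line marks no difference. Globin, Car1, Gata1 and Klf1 bars are wide, Car2 bars narrow, and no gene passes an adjusted p under 0.05.

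The precision of these fits differed by member. The biological coefficient of variation that edgeR fitted, the spread between replicates beyond counting error, was 0.274 for Car2 and 0.493 for Gfi1b. It lay between 0.955 (Hbb-bt) and 1.49 (Klf1) for the rest, beside a median of 1.26 over all genes. That no member passed does not show that the groups are alike.

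The level in both fractions of a mouse was related for 5 of the 9 members. Over 11 mice, Pearson's r between the LEPR+ and LEPR- values (log2(CPM + 0.5)) was 0.914 for Car2 (Spearman's rho 0.909, permutation p 0.00015, adjusted over 9 genes 0.00135). The 4 globins followed, with r between 0.725 for Hba-a2 and 0.837 for Hbb-bt (rho 0.682 and 0.855, permutation p 0.0121 and 0.00133, adjusted 0.0217 and 0.00599). Gfi1b had an r of 0.476 (rho 0.391, permutation p 0.139, adjusted 0.209). The relation did not pass for Klf1 (r 0.00940, permutation p 0.979, rho -0.0455), Gata1 (r -0.0197, permutation p 0.954, rho 0.200) or Car1 (r -0.360, permutation p 0.279, rho -0.300). Over 9025 genes averaging 10 CPM or more, the median r was 0.390, and 2.42% had an r at least as high as Car2. For the globins this share was 7.09% (Hbb-bt), 12.3% (Hbb-bs), 13.6% (Hba-a1) and 16.9% (Hba-a2).

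These relations were then recomputed on fewer mice. Without the 2 mice farthest from the median of the LEPR+ values, r was 0.854 for Car2, between 0.533 and 0.696 for the globins and 0.774 for Gfi1b. Without mice 2 and 6, it was 0.964 for Car2, 0.857 for Gfi1b and between 0.419 (Hba-a2) and 0.609 (Hbb-bt) for the globins, so that the globin relation rested in good part on those mice. Gata1, with 4 counts in the LEPR+ library of each of them, had an r of 0.662 without them, above every globin. Klf1 and Car1 stood at -0.0421 and -0.319. Within the 7 middle-aged mice, r was 0.979 for Car2, 0.829 to 0.941 for the globins and 0.835 for Gfi1b, against 0.497 for Klf1, 0.0294 for Car1 and -0.439 for Gata1. The 4 young mice are too few for a separate value.

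**Figure D4:**
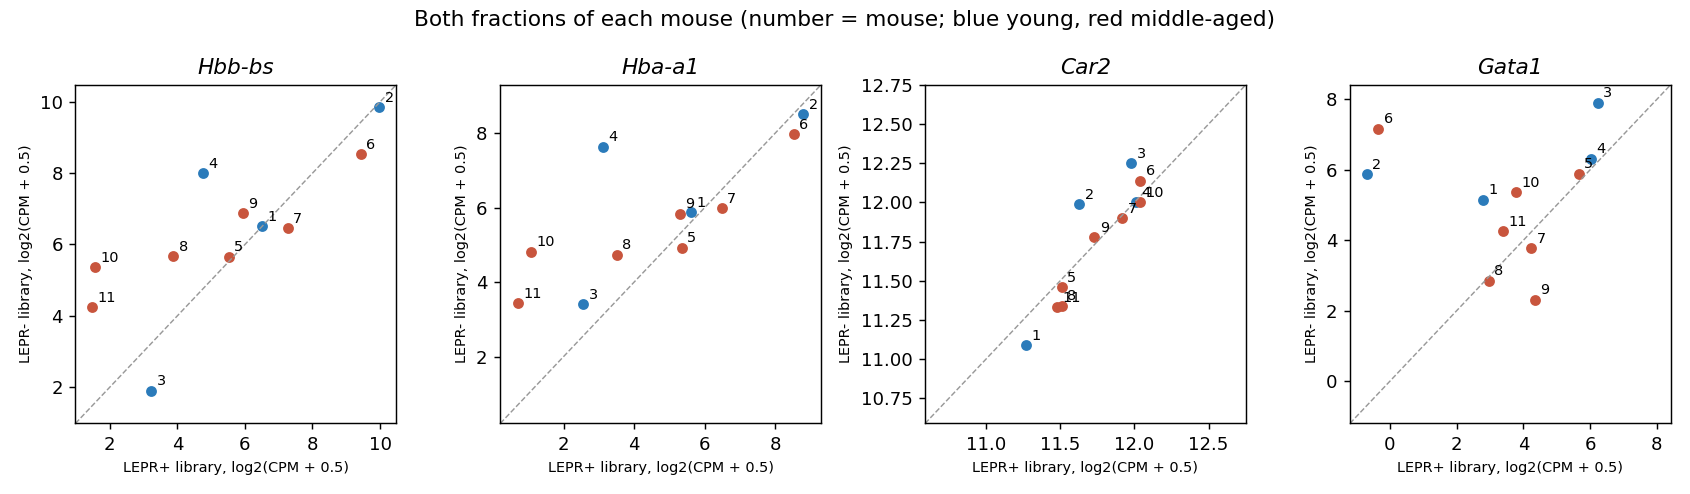
LEPR- level (vertical) against LEPR+ level (horizontal) of 4 genes in each mouse, both as log2(CPM + 0.5), with the line of equal values dashed; numbers are mice, blue young, red middle-aged, and axes differ between panels. Car2 lies along the line (r 0.914), Hbb-bs and Hba-a1 follow it more loosely (r 0.776 and 0.763), and Gata1 has an r of -0.0197, or 0.662 without mice 2 and 6, the points farthest to the left.

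Among the members, the globins varied together. Over the 11 mice, with both fractions averaged on the log2 scale, the 6 pairs of globins had r between 0.917 (Hba-a2 and Hbb-bt, rho 0.873) and 0.990 (Hba-a2 and Hbb-bs, rho 0.964). Their permutation p-values were 0.00011 or smaller, and 0.00066 or smaller after adjustment over the 36 pairs of members. Leaving out the 2 farthest mice kept these r at 0.844 or higher. No pair that included Car1, Car2, Gata1, Klf1 or Gfi1b passed the adjustment. Within the 7 middle-aged mice the highest r of such pairs were 0.830 for Car1 and Car2 and 0.788 for Hbb-bt and Car1. With Gata1, r was -0.435 for Hba-a1 (rho -0.418, permutation p 0.181, adjusted 0.406), which did not pass. It was -0.530 for Hba-a2, -0.508 for Hbb-bs and -0.300 for Hbb-bt, which did not pass either. Without the 2 farthest mice these r were -0.444, -0.569, -0.0644 and 0.188, in the same order. Mice 2 and 6, rich in globin, had 4 Gata1 counts each in their LEPR+ libraries.

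Genes of mature red cells were set beside the globins. Of 35 genes of red cells and late erythroblasts listed, 34 were in the files and 30 were tested; edgeR called 0 in any of the 5 comparisons. Unadjusted p-values under 0.05 were found for 5 of the 30 for LEPR in young mice, 0 in middle-aged mice, 7 and 6 for age in LEPR+ and LEPR- cells, and 4 for the difference between ages. These counts of 30 stand beside 16.1%, 0.875%, 19.7%, 28.01% and 12.8% of all genes. The median log2 fold change of the tested genes was -0.29 for LEPR in young mice, -0.17 for LEPR in middle-aged mice, 0.51 for age in LEPR+ cells and 0.21 for age in LEPR- cells, beside 0, 0.01, 0.25 and 0.33 over all genes. Slc4a1, the band 3 anion exchanger of the red-cell membrane, exceeded 3 counts in 3 of 22 libraries and reached 15.5 CPM in the LEPR- library of mouse 6. Alas2, the erythroid enzyme that starts haem synthesis, exceeded 3 counts in 13 libraries and peaked in mouse 2, at 29.2 CPM in LEPR+ and 19.7 CPM in LEPR- cells, where globins also peaked. In mouse 6 it was nearly undetected, at 0.142 and 0.0265 CPM, beside globin sums of 1383 and 835 CPM. Icam4 was at 0 in all libraries.

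The 18-gene marker list of red cells and late erythroblasts, 17 of which were in the files, summed to 43.5 to 95.8 CPM in young LEPR+ cells and 62.5 to 241 CPM in young LEPR- cells. In middle-aged cells it summed to 74.4 to 124 CPM in LEPR+ and 46.6 to 244 CPM in LEPR- libraries. The highest sum of each group was that of mouse 2 in both young fractions and of mouse 6 in both middle-aged fractions. Between 2 and 16 genes of the marker list exceeded 3 counts in a library. Summed over the longer red-cell list, mouse 6 was again highest in both middle-aged fractions, while mouse 1 was highest in both young ones. Whether RNA carried over from red cells entered the globin values was not tested beyond these levels.

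The 8 genes of haem synthesis were all tested and edgeR called 0, with 1, 0, 1, 3 and 0 at an unadjusted p under 0.05 in the same order of comparisons, beside those same shares of all genes. Their median log2 fold change was -0.67 for LEPR in young mice, -0.10 for LEPR in middle-aged mice, 0.09 for age in LEPR+ cells, -0.68 for age in LEPR- cells and 0.49 for the difference, beside 0, 0.01, 0.25, 0.33 and 0.01 over all genes. Apart from Alas2 and Ppox, which oxidises protoporphyrinogen, each exceeded 3 counts in all 22 libraries. The 21 listed early erythroid and megakaryocyte-erythroid regulators were also all tested, and edgeR called 0 in any comparison, with 4 and 3 at an unadjusted p under 0.05 for age in LEPR+ and LEPR- cells (19.7% and 28.01% of all genes) and 0 elsewhere. Gata2, which precedes Gata1 in stem cells, was in all libraries at a mean of 108 CPM and spanned 4.26-fold, much less than Gata1. Tal1, a partner of GATA1, was in all libraries at a mean of 52.6 CPM, and Spi1, which encodes the GATA1 antagonist PU.1, at a mean of 52.4 CPM. Zfpm1, the GATA1 cofactor FOG1, averaged 9.35 CPM. Epor, the erythropoietin receptor, averaged 19.5 CPM and was at 0 in 2 libraries.

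Megakaryocyte genes, whose lineage shares GATA1 and GFI1B, were examined beside the regulators. Pf4, platelet factor 4, had its lower value on the LEPR+ side in 11 of 11 mice, with log2 fold changes of -1.33 (SE 0.49, edgeR adjusted p 0.176) in young and -1.57 (SE 0.37, edgeR adjusted p 1) in middle-aged mice, neither of which passed the test. Of all tested genes, 4.53% were lower in LEPR+ cells in every young mouse and 0.668% in every middle-aged mouse. The share over all 11 mice was not computed. Itga2b, the integrin CD41, was lower in LEPR+ cells in 6 of 11. Of 15 tested megakaryocyte and platelet markers, 1 was higher with age in LEPR+ cells and 3 in LEPR- cells (edgeR), where 0.173% and 3.84% of all genes were called; they are named here after their values were seen. Cavin2, a caveolar coat gene, was the 1 in LEPR+ cells (log2 fold change 2.26, SE 0.46, edgeR adjusted p 0.0474), and Cavin2, Selp, which encodes P-selectin, and Gp1ba, a platelet receptor subunit, were the 3 in LEPR- cells. In the other marker lists, edgeR called 1 of 10 HSC genes, Kit, and 1 of 4 tested mast cell and basophil genes, Cpa3, both higher with age in LEPR- cells. Neutrophil markers summed to 273 to 427 CPM in young LEPR+ and 282 to 1157 CPM in young LEPR- libraries. Of the 12 listed, 1 to 4 exceeded 3 counts in young LEPR+ and 3 to 8 in young LEPR- libraries. Prtn3, which is on this list, averaged 551 CPM over all 22 libraries, so the sums rest largely on it. The part of neutrophil markers in the differences of Gfi1b and Gata1 between the young fractions was not tested.

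**Figure D5:**
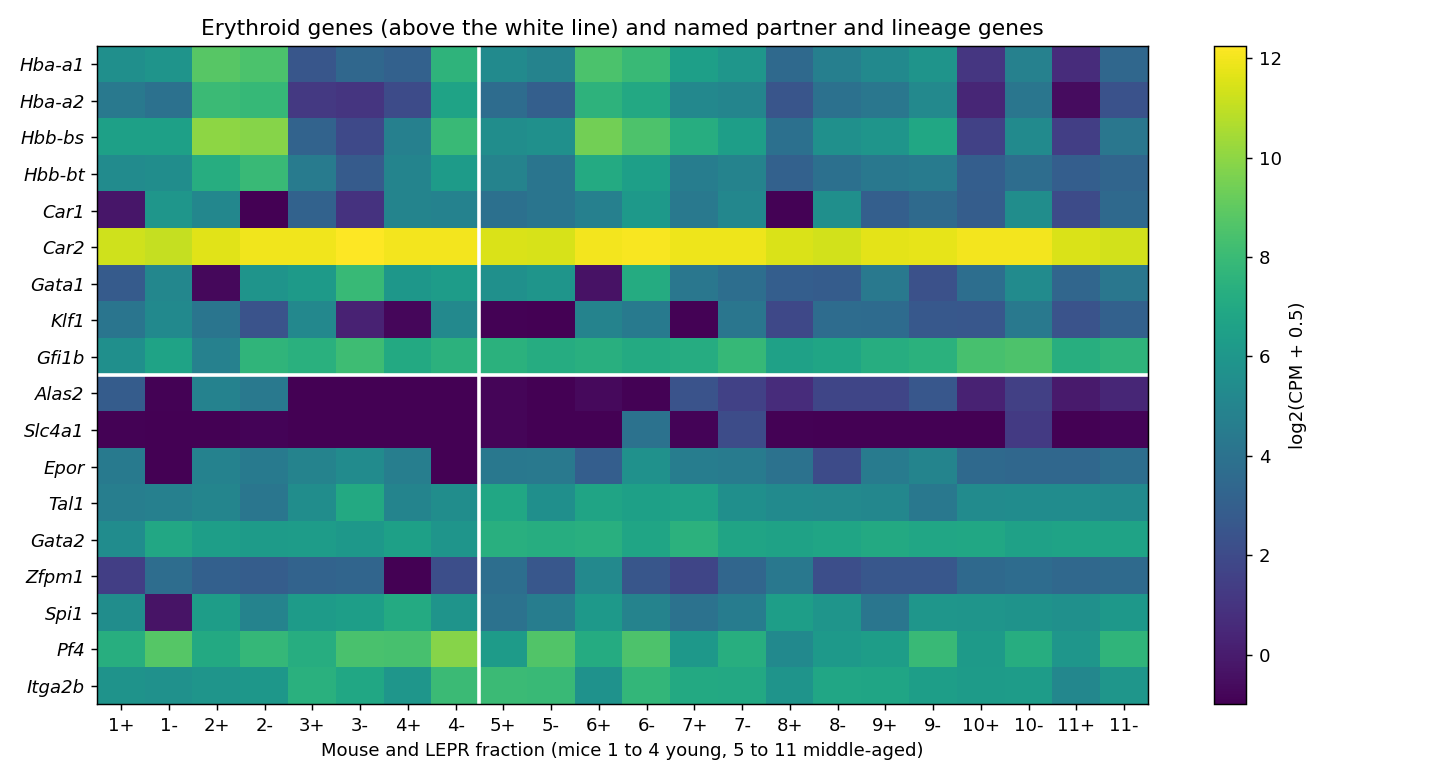
Levels of the 9 members (above the white horizontal line) and 9 named partner and lineage genes in 22 libraries, as log2(CPM + 0.5); columns are mice, + for LEPR+ and - for LEPR-, with young mice left of the vertical line. Globins are brightest in both libraries of mice 2 and 6, Car2 is uniformly high, and Slc4a1 is dark in nearly all columns.

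The genes outside the list whose level across the 22 libraries was most like that of a member are given by Spearman's rho among 9024 genes averaging 10 CPM or more, as a description. The points share mice and library depth. For Gata1 they were Kif22 (0.855), Polr1c (0.843) and Zc3hc1 (0.813), and for Gfi1b Mrpl49 (0.817), Hnrnpa0 (0.797) and Strn (0.732). For Car2 they were Aurkb (0.835), Acbd6 (0.820) and Gnb2 (0.817), and for Car1 Naif1 (0.646), Itga5 (0.642) and P2rx1 (0.634). Klf1 was most like Gm45819 (0.765), Bambi (0.715) and Commd7 (0.714). Hbb-bs was most like Tifa (0.736), Maea (0.732) and Rab38 (0.728).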

How the data were processed

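The deposited values were raw read counts per gene for 22 libraries, 1 file each. Per the submitters' processing notes, FastQC, cutadapt, STAR, HTSeq and DESeq2 were used with GRCm39. Their versions, the annotation and the strand setting are not given in the sources used here. Poly(A) RNA was amplified with a very-low-input kit, per the labels. Reads without molecular identifiers are not independent molecules, so count floors (3 counts) cover counting error only. Summary lines for reads outside single genes, 29.1% to 40.4% of a file, were left out.

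Gene names came from GENCODE vM39 (54749 of 55416 identifiers matched). The counts were TMM-scaled and tested with edgeR 4.0.16 (quasi-likelihood, R 4.3.3) in 1 fit over the 4 groups, after filterByExpr (minimum count 10, minimum total 15), with Benjamini-Hochberg adjustment over 17366 genes and a threshold of 0.05. The edgeR test gives no standard error. The SE printed for its fold changes is the absolute log2 fold change divided by the square root of the F statistic of the test. Correlations used log2(CPM + 0.5) and 100000 permutations. The edgeR code was tested on simulated data.

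Both fractions of a number came from the same mouse, per the labels, so the mouse is the replicate block. The main fit leaves it out. Alternatives were RLE size factors, no filter, DESeq2 1.42.0, only the groups compared, sex as a covariate, library sizes without globins, the block, and each library left out. The members, the lists and the rule for naming genes were chosen with earlier results of these data known. All 9 members are named in every comparison, as are the called genes of each pathway list and 9 of 10 fixed partner and lineage genes, the tenth of which is not reported here.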

Additional observations from a re-analysis of the deposited data

Results flagged for a closer look

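In 72 sets of values (a member or named partner gene in 1 group), 23 held a highest library that stood apart from the nearest other by more than Dixon's 95% limit. That limit assumes values with a normal spread, and the CPM values of many of these genes were skewed. The number of flags to be met by chance is therefore not known, and sets of the same mouse are not independent. Group names below give age and LEPR status.

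Of the 23, 12 were globin values of mice 2 and 6. In young LEPR+ cells mouse 2 stood apart at 1005 CPM for Hbb-bs (next highest 90.8), 154 CPM for Hbb-bt (42.0), 444 CPM for Hba-a1 (48.5) and 262 CPM for Hba-a2 (19.9). In middle-aged LEPR+ cells mouse 6 stood apart at 692 CPM for Hbb-bs (154), 138 CPM for Hbb-bt (30.4), 367 CPM for Hba-a1 (89.1) and 187 CPM for Hba-a2 (36.04). In middle-aged LEPR- cells the same mouse had 371 CPM for Hbb-bs (117), 87.9 CPM for Hbb-bt (29.7), 250 CPM for Hba-a1 (62.6) and 126 CPM for Hba-a2 (36.9).

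Among the regulators, Gata1 stood apart at 50.2 CPM in the middle-aged LEPR+ library of mouse 5 (next 19.9) and at 143 CPM in the LEPR- library of mouse 6 (58.6). Klf1 did so at 29.8 CPM in the LEPR+ library of mouse 6 (11.8), and Gfi1b at 337 CPM in that of mouse 10 (175).

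The other sets concerned partner and lineage genes. Alas2 reached 19.7 CPM in the young LEPR- library of mouse 2, where the other young LEPR- libraries had 0.0322 CPM or less. In the LEPR- library of mouse 6, Slc4a1 reached 15.5 CPM and Tal1 92.9 CPM. Gata2 stood apart at 153 CPM in the middle-aged LEPR- library of mouse 5, Pf4 at 331 CPM in the young LEPR+ library of mouse 4, and Itga2b at 172 CPM in the young LEPR+ library of mouse 3 and 264 CPM in the middle-aged LEPR+ library of mouse 5.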

How the results depend on the processing

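The 954 recomputed fold changes of the members included 78 with another sign than in the fit reported, of which none was larger than its standard error in both fits, and 1 that passed the threshold: Hbb-bt for age in LEPR- cells without both libraries of mouse 6 (1 member called, log2 fold change -2.41, edgeR adjusted p 0.0404), an alternative chosen after seeing the data. Without the LEPR- library of that mouse alone the adjusted p was 0.0770. In all other alternatives 0 members were called. A change of sign could count as larger than its error only where the reported value itself exceeded its standard error. Most globin values did not, so the rule says little about them. For age in LEPR+ cells, Hba-a1 ran from -2.06 to 1.93 over the fits with 1 library left out. The counts over all genes moved far more. DESeq2 called 2004 genes for LEPR in young mice (edgeR 104), 4 in middle-aged mice (0), 2012 and 3668 for age in LEPR+ and LEPR- cells (30 and 667) and 1349 for the difference between ages (41). Without a filter on low counts 61, 13 and 239 were called for LEPR in young mice and age in LEPR+ and LEPR- cells. With only the groups compared, 0 were called for LEPR in young mice and 14 for age in LEPR+ cells. With the mouse as replicate block, 25, 1 and 7 were called for LEPR in young mice, in middle-aged mice and for the difference, and the block changed no call of a member. Leaving out mouse 6 gave 671, 2260 and 91 for age in LEPR+ cells, age in LEPR- cells and the difference, and leaving out mouse 2 gave 393 for age in LEPR- cells. Leaving out 1 library gave 82 to 186 genes for LEPR in young mice, 12 to 112 for age in LEPR+ cells, 280 to 1668 for age in LEPR- cells and 31 to 114 for the difference. The highest counts came without the LEPR- library of mouse 4 (186 and 114), the LEPR+ library of mouse 6 (112) and its LEPR- library (1668). The cause was not tested. Klf1 and Car1 had 3 counts or fewer in 4 and 2 libraries. These did not follow depth alone: 3 of the 4 Klf1 libraries held 28.6 M to 38.4 M counts, and the shallowest library (10.3 M) had 62 Klf1 and 122 Car1 counts.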
